A study of Mus musculus with 15 samples.

Results

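The change in gene expression of the mouse lung over 1 day, from E13.5 to E14.5 (E, embryonic day), was measured by RNA sequencing of freshly dissected lungs. The libraries were chosen by their labels: 3 libraries at E14.5 were set against 3 at E13.5, which are 6 of the 15 libraries of the series. All genes of the count table were taken, and 14242 of 23420 had enough counts to be tested. All embryos were wild-type CD1, an outbred strain, and the labels name no treatment of the fresh lungs. Each library of these 2 stages held RNA of 3 pooled lungs. The 3 libraries at E12.5, each of 6 pooled lungs, served for the estimate of the spread and for the day before. The 6 libraries of lungs cultured under low or high pressure were not analysed here. The labels do not say whether pools came from separate litters, so a p-value here speaks of pool-to-pool spread only.

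At these ages the mouse lung is in the pseudoglandular stage, when the epithelial tubes branch repeatedly into the surrounding mesenchyme. FGF10 from the mesenchyme draws out the tips, while sonic hedgehog, WNT, BMP, retinoic acid and Notch signals pattern the tubes and the tissue around them. Vessels, matrix and the outer mesothelium grow alongside the tubes, and muscle of the heart's kind forms around the pulmonary veins in mice.

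Levels are given as CPM, counts brought to a common library size by the trimmed mean of M values, and are listed in the order of replicates 1, 2 and 3. They compare 1 gene between libraries and do not rank genes against each other, since they are not divided by transcript length. Fold changes are on the log2 scale, E14.5 against E13.5, and each adjusted p is from edgeR's quasi-likelihood test, adjusted by Benjamini-Hochberg across the 14242 genes, with a threshold of 0.05. "Rose" and "fell" are used only of genes past that threshold, and a size after "rose by" is in log2 units. The libraries held 18837343 to 20946505 counts and 16518 to 16729 detected genes. Replicate 1 stood apart at every stage: cytosolic ribosomal protein genes took 3.99% and 4.34% of its counts at E13.5 and E14.5, and 1.75% to 1.93% in replicates 2 and 3. The replicate number was therefore a block in the fit. Markers of lung identity were present in all 6 libraries, with Nkx2-1, the transcription factor that defines lung epithelium, at 62.8, 93.3 and 94.3 CPM at E13.5 and 89.8, 88.2 and 108 CPM at E14.5. The liver, gut, thymus and thyroid markers summed to between 4.25 and 9.45 CPM. The oesophagus and stratified epithelium markers summed to 4.55, 37.2 and 30.5 CPM at E13.5 and 6.10, 29.5 and 42.4 CPM at E14.5. Replicate 1 held the least of them at both stages.

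Of the 14242 genes tested, 856 (6.01%) changed from E13.5 to E14.5, 591 (4.15%) upward and 265 (1.86%) downward. All 591 risen genes were higher in all 3 same-numbered pairs, as were 24.7% of the genes tested, and all 265 fallen genes were lower in all 3, as were 22.7%. The fit was blocked by replicate number, so this agreement largely follows from the selection and is not separate support. In 386 of the risen genes (7.84% of all genes tested were higher in this way) the 3 libraries at E14.5 lay above all 3 at E13.5 without overlap. The libraries at E14.5 lay below all at E13.5 in 128 of the fallen genes, against 4.14% of all genes tested. The rises included more large ones: 231 genes (1.62%) rose by at least 2-fold and 34 (0.239%) fell by as much, 265 (1.86%) in all. Of the 231, 149 had a mean under 5 CPM over the 6 libraries. At a mean of at least 5 CPM, 82 genes rose and 10 fell by at least 2-fold. The highest E14.5 level of the 231 was in replicate 1 for 76 genes, in replicate 2 for 144 and in replicate 3 for 11. The median log2 fold change was 0.75 among risen genes, -0.44 among fallen genes and -0.002 among all genes tested.

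**Figure D1:**
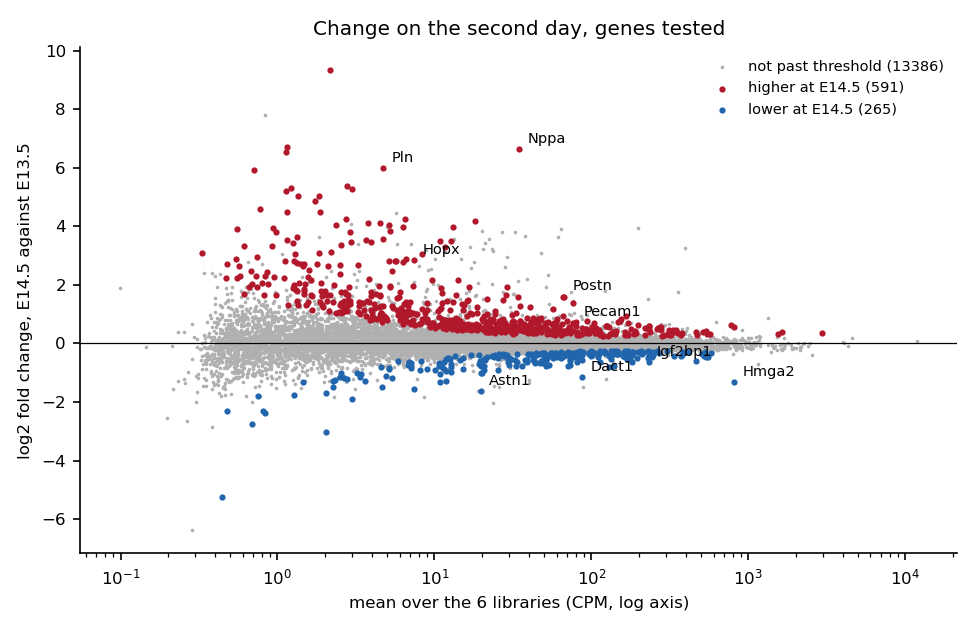
Each point is 1 of the 14242 genes tested, with its mean level over the 6 libraries (CPM, log axis) against its log2 fold change from E13.5 to E14.5. The 591 risen genes (red) reach far higher fold changes than the 265 fallen genes (blue), and Nppa stands near the top at 6.64.

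These counts rest on the block and on few libraries. Without the replicate block no gene passed, and 977 had an unadjusted p under 0.05, against 3130 with it. Left out in turn, E13.5 replicates 1, 2 and 3 gave 187, 77 and 832 changed genes, and E14.5 replicates 1, 2 and 3 gave 400, 402 and 328. The count with at least 2-fold change was 83, 46 and 300 without the E13.5 replicates and 179, 153 and 164 without the E14.5 replicates. With relative log expression scaling the split was 500 upward and 381 downward, and that scaling moved the median of all genes to -0.035. Counts of risen and fallen members in the lists below compare with 4.15% and 1.86% of all genes tested in the reported fit. The lists were chosen with earlier results of these data known, so these shares describe the lists and are not separate support. Among all 52 gene lists, 32 combinations of a list and a direction had only 1 or 2 genes past the test. Of these 32, 26, 31 and 5 had none without E13.5 replicates 1, 2 and 3, and 19, 13 and 20 had none without E14.5 replicates 1, 2 and 3. None of the 32 held a call in all 6 of these fits.

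Genes of striated and cardiac muscle had the highest median log2 fold change of the 52 gene lists. Of the 29 members tested of a list of 33, 12 rose and none fell, with a median log2 fold change of 3.63 against -0.002 for all genes. All 29 had an unadjusted p under 0.05, 28 with a positive and 1 with a negative log2 fold change. The 4 members that were too low to test included Myod1 and Myog, transcription factors of skeletal muscle, with means of 0.0688 and 0.134 CPM at E13.5 and 0.260 and 0.470 CPM at E14.5. The summed level of the list was 409, 318 and 402 CPM at E13.5 and 1549, 4076 and 1184 CPM at E14.5. All 3 libraries at E14.5 thus lay well above all at E13.5, and E14.5 replicate 2 was the highest. In bulk tissue, more cells of a type and more RNA per cell cannot be told apart, which holds for every group below. The labels do not say how closely the heart and great vessels were trimmed, and the part of dissection in this rise was not tested.

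Promoters of 6 risen muscle genes are shown, because these genes rose together and their windows hold a searched motif. Each line is the 250 bases before the annotated start (RefSeq, GRCm38.p6), 5′ to 3′ on the gene's strand. Capitals mark TATAAA, the TATA box core, on either strand, and in Myh8 and Casq2 the binding motif of MEF2 and in Acta1 the CArG box of serum response factor, both searched by their consensus. The MEF2 motif and TATAAA overlap in Myh8.
Nppa, chr4:148000472-148000721, plus strand: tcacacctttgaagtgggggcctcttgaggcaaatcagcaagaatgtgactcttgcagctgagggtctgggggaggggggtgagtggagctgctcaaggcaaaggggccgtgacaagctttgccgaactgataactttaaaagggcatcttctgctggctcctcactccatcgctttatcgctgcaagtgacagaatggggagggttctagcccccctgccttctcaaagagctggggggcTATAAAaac
Pln, chr10:53337436-53337685, plus strand: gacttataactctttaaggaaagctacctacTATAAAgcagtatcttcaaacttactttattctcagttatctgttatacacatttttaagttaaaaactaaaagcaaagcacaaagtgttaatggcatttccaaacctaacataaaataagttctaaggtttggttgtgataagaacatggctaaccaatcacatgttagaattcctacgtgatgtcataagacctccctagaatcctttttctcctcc
Myh3, chr11:67078050-67078299, plus strand: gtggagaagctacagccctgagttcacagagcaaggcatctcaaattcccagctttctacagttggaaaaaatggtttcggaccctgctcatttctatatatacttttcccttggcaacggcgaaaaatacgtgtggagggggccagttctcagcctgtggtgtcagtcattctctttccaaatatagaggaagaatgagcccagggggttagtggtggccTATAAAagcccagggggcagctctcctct
Myh8, chr11:67276874-67277123, plus strand: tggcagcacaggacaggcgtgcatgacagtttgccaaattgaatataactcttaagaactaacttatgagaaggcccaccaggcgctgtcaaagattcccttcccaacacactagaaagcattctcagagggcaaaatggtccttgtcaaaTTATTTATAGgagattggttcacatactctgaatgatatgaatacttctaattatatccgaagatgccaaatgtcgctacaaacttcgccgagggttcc
Casq2, chr3:102086165-102086414, plus strand: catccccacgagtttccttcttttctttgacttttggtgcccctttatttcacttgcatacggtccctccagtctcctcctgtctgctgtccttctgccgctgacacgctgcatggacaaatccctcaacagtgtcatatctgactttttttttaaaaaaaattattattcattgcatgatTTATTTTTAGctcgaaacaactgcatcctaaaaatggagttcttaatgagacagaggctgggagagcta
Acta1, chr8:123894776-123895025, minus strand: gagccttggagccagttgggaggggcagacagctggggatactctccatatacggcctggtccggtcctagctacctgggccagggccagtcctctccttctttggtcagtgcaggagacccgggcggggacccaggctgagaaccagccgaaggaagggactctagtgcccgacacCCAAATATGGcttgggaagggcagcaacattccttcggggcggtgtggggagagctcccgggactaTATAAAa
TATAAA lay 9 to 4 bases before the annotated start in Nppa, 29 to 24 bases before it in Myh3, 7 to 2 bases in Acta1, 96 to 91 bases in Myh8 and 219 to 214 bases in Pln. The MEF2 motif lay 99 to 90 bases before the start of Myh8 and 69 to 60 bases before that of Casq2, and the CArG box 73 to 64 bases before that of Acta1. Of the 12 risen list members, 9 had an entry, with 10 windows, of which 5 held TATAAA. The share was 12.4% of all 32851 promoter windows and 6.65% of the windows of genes tested. The MEF2 motif was in 1 of the 10 windows, against 2.92% of all windows and 1.60% of those of genes tested. The CArG box was also in 1 of the 10, against 1.47% and 1.17%. Casq2 is not a member of that list and was taken up here because it was among the largest rises. A match describes these letters only and shows no binding.

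Genes of atrial muscle were among those that rose. Nppa, which encodes the hormone atrial natriuretic peptide, stood at 1.53, 0.313 and 0.0977 CPM at E13.5 and 55.6, 125 and 24.6 CPM at E14.5 (log2 fold change 6.64 ± 0.60 (SE), adjusted p = 0.00919). Sln, which encodes the atrial calcium pump inhibitor sarcolipin, had 3 counts over all E13.5 libraries and 127 over those at E14.5, or 43.5 times the E13.5 share of counts (95% exact counting interval 14.6 to 214). Bmp10, a ligand of the atrial wall singled out after its values were seen, had no count in any E13.5 library and 2.5, 8.97 and 1.46 CPM at E14.5 (adjusted p = 0.00544). Against the limit of 3 counts that 0 allows over the E13.5 group, this was at least 85.0-fold higher, with the E14.5 counts taken as exact. The 95% exact counting interval, which also covers the error of the E14.5 counts, had a lower end of 68.6. Both bounds are for counting error only. The atrial myosin light chains Myl7 and Myl4 stood at 10.7, 1.72 and 2.64 CPM at E13.5 and 48.4, 63.6 and 14.6 CPM at E14.5, and at 16.3, 2.55 and 7.53 CPM at E13.5 and 90.6, 199 and 51.1 CPM at E14.5. Neither passed the test (log2 fold change 3.16, adjusted p = 0.0701 and log2 fold change 3.63, adjusted p = 0.099), although in both all 3 libraries at E14.5 lay above all 3 at E13.5. Myl2, the light chain of the ventricle, was at 0.307, 0.104 and 0 CPM at E13.5 and 0.751, 0.63 and 0.594 CPM at E14.5 and did not pass (log2 fold change 2.31, adjusted p = 0.108). Its stages did not overlap either. It had 8 counts at E13.5 and 38 at E14.5, or 4.89 times the E13.5 share of counts (95% exact counting interval 2.25 to 12.1).

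Genes of the sarcomere and of calcium handling also rose. Pln, which encodes phospholamban, a brake on the cardiac calcium pump, stood at 0.153, 0 and 0.195 CPM at E13.5 and 5.75, 19.2 and 2.97 CPM at E14.5 (log2 fold change 5.99 ± 0.65 (SE), adjusted p = 0.00331). Casq2, the calcium store protein of the heart, was at 1.28, 1.09 and 1.51 CPM at E13.5 and 15.7, 50.1 and 8.8 CPM at E14.5 (log2 fold change 3.98 ± 0.73 (SE), adjusted p = 0.0484). Acta1, skeletal alpha-actin, was at 0.562, 1.04 and 0.293 CPM at E13.5 and 5.65, 19 and 4.7 CPM at E14.5 and rose by 3.84 log2 units. In each of these 3 genes the groups did not overlap and E14.5 replicate 2 was highest. Of the thick-filament genes, Myh3, the embryonic skeletal myosin, stood at 0.204, 0.209 and 0.0489 CPM at E13.5 and 4.85, 3.72 and 2.11 CPM at E14.5 (log2 fold change 4.50 ± 0.41 (SE), adjusted p = 0.000598). Myh8, the perinatal skeletal myosin, rose by 2.83, and Tnni1, slow skeletal troponin I, by 3.29. Myh3 and Myh8 were highest in E14.5 replicate 1 and so did not follow most of the muscle genes tested between libraries. Myh6, the atrial myosin heavy chain, stood at 55.1, 3.55 and 20.0 CPM at E13.5 and 329, 639.6 and 146 CPM at E14.5 and Actc1, cardiac alpha-actin, at 88.7, 45.1 and 61.2 CPM at E13.5 and 430.1, 1373 and 357 CPM at E14.5. Neither passed (log2 fold change 3.94, adjusted p = 0.183 and log2 fold change 3.27, adjusted p = 0.128).

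Regulators and scaffold proteins of muscle also rose. Nkx2-5, a transcription factor of heart muscle, stood at 0.664, 0.469 and 0.391 CPM at E13.5 and 4.05, 13 and 3.24 CPM at E14.5 (log2 fold change 3.53 ± 0.42 (SE), adjusted p = 0.0021). Tbx5, which the heart and the lung mesenchyme share, was the 1 tested member below 0, at -0.25 (adjusted p = 0.0577), and it passed as lower with relative log expression scaling. The metabolic genes Ckm, muscle creatine kinase, and Cox6a2, the striated-muscle cytochrome oxidase subunit, rose by 4.87 and 5.37 from very low levels. The titin-associated genes Ankrd1 and Trim55 rose by 4.17 and 3.51, and Xirp1, another muscle gene, by 4.05. Popdc2, a cyclic AMP-binding membrane protein of heart muscle, rose from 1.53 to 20.0 CPM (log2 fold change 3.51, adjusted p = 0.0282). Fsd2, Alpk2 and Sh3bgr were also among the 12 largest rises, at 4.25, 3.98 and 3.06. Hcn4, the pacemaker channel, singled out after its values were seen, was at 2.86, 2.87 and 4.69 CPM at E13.5 and 5.25, 15.7 and 8.1 CPM at E14.5 and rose by 1.41.

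On the day before, from E12.5 to E13.5, the muscle list had a median of 1.28 and no member passed the test. Both steps share the E13.5 libraries. Leaving out 1 library at a time, the number of members risen from E13.5 to E14.5 was 8, 8 and 9 without E13.5 replicates 1, 2 and 3, and 10, 20 and 10 without those of E14.5. The rise was therefore present without its highest library, E14.5 replicate 2. DESeq2 called 25 of the 29 higher and 1 lower, the fit on the 6 libraries of E13.5 and E14.5 called 8 higher and 1 lower, and the fit without the replicate block called none.

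**Figure D2:**
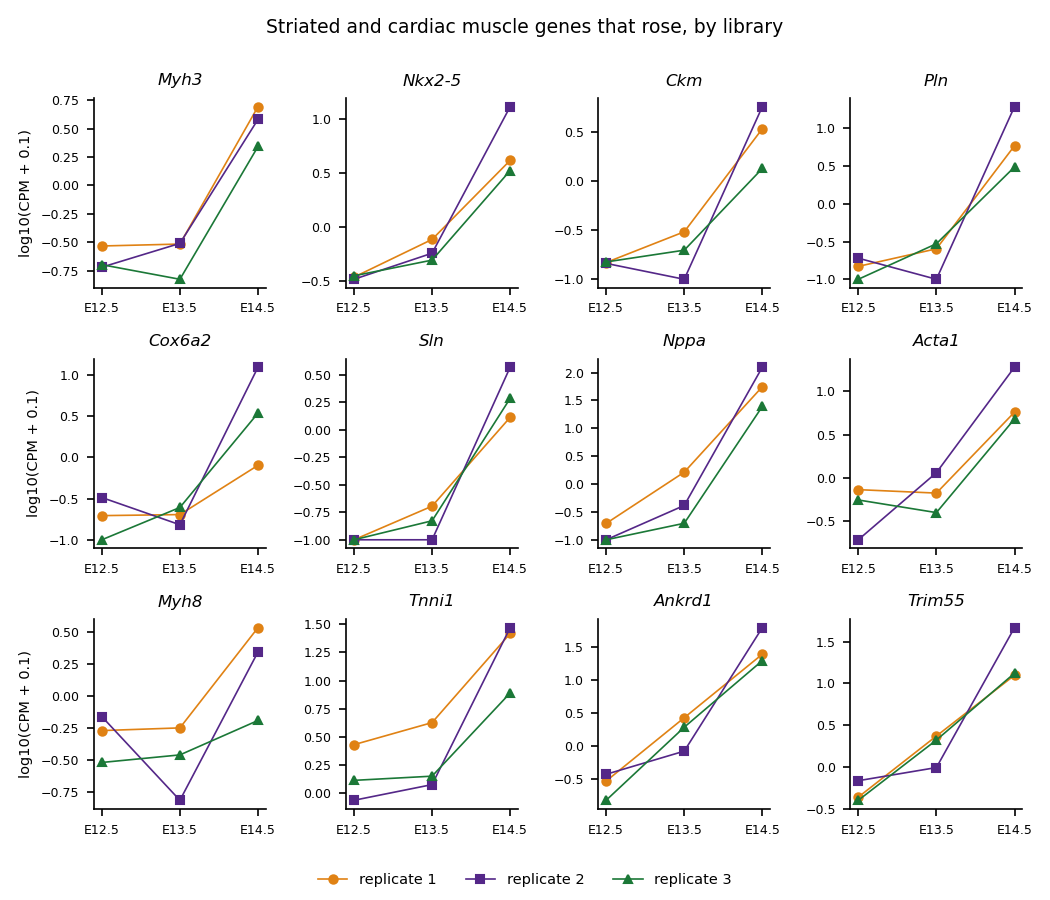
The 12 striated and cardiac muscle genes that rose are plotted by library as log10(CPM + 0.1) at the 3 stages, with a line for each replicate number. Every E14.5 point lies above every E13.5 point of its gene, and replicate 2 is the highest at E14.5 in all but Myh3 and Myh8.

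Endothelial genes rose in a larger share than those of any other of the 52 lists. Of 28 tested, 16 rose (57.1%) and none fell, all 28 had a positive log2 fold change, and the median was 0.55. Emcn, the endothelial sialomucin endomucin, stood at 17.8, 29.9 and 30.5 CPM at E13.5 and 31.5, 55.2 and 46.3 CPM at E14.5 (log2 fold change 0.77 ± 0.11 (SE), adjusted p = 0.00371). Pecam1 (CD31; chr11:106654217-106750628, minus strand, GENCODE M21), the junction protein used to stain vessels, stood at 74.5, 52 and 52.6 CPM at E13.5 and 122, 93.2 and 81.4 CPM at E14.5 (log2 fold change 0.72 ± 0.11 (SE), adjusted p = 0.00544). Both were higher in every E14.5 library than in any at E13.5. Cdh5, the adhesion protein of endothelial junctions, stood at 194, 172 and 192 CPM at E13.5 and 308, 285 and 253 CPM at E14.5 (log2 fold change 0.59, adjusted p = 0.00469), again without overlap. Receptors rose as well: Kdr, the main VEGF receptor, by 0.42, the angiopoietin receptor Tek by 0.78, Tie1 by 0.57, Eng by 0.66 and the apelin receptor Aplnr by 0.58. Vwf, von Willebrand factor, rose from 11.1 to 26.4 CPM (log2 fold change 1.23, adjusted p = 0.0237). Gja5, a connexin of arteries and of atrial muscle, stood at 28.9, 30.8 and 27.3 CPM at E13.5 and 39.1, 97.1 and 45.2 CPM at E14.5, was highest in the same library as the muscle genes, and did not pass (log2 fold change 0.99, adjusted p = 0.13).

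The endothelial list had a median of 0.02 on the day before, and none of its members passed there. The number of members risen was 7, 1 and 17 without E13.5 replicates 1, 2 and 3, and 12, 12 and 10 without those of E14.5. Without E13.5 replicate 2 a single member thus passed. The summed level of the list was 1850, 1711 and 1849 CPM at E13.5 and 2549, 2554 and 2282 CPM at E14.5, with no overlap. In the VEGF and angiopoietin list 4 of 17 rose and none fell, and that count was 1, 0 and 5 without E13.5 replicates 1, 2 and 3, and 3, 3 and 4 without those of E14.5. The fourth beside Aplnr, Kdr and Tek was Nrp1, a co-receptor for VEGF and semaphorins, at 162, 234 and 272 CPM at E13.5 and 227, 428 and 329.5 CPM at E14.5 (log2 fold change 0.55, adjusted p = 0.0143). Of 9 lymphatic endothelial genes tested 1 rose, Pdpn, which epithelium and mesothelium also make, and all 9 were positive with a median of 0.58.

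Notch genes rose in part. Of 17 tested, 4 rose (23.5%) and 1 fell (5.88%), against 4.15% and 1.86% of all genes, with a median of 0.40. Heyl, a target gene of Notch in the vessel wall, stood at 26.4, 16.3 and 15.4 CPM at E13.5 and 40.8, 33.1 and 27 CPM at E14.5 (log2 fold change 0.81 ± 0.10 (SE), adjusted p = 0.0025), with each E14.5 library above all at E13.5. Its fold change on the day before was -0.30. The ligand Dll1 rose from 3.49 to 6.4 CPM, the feedback gene Nrarp by 0.50, and the endothelial receptor Notch4 by 0.43. Notch3, the receptor of pericytes and vascular smooth muscle, fell, from 285, 197 and 213 CPM to 213, 172 and 176 CPM (log2 fold change -0.30, adjusted p = 0.0276). The number of Notch genes fallen was 0, 0 and 0 without E13.5 replicates 1, 2 and 3, and 0, 1 and 0 without those of E14.5.

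Pericyte genes, which mark the cells that wrap capillaries, rose in 4 of 13, among them Postn (below), 1 fell (Notch3, already named), and the median was 0.80. Kcnj8, a subunit of the potassium channel gated by ATP, stood at 1.48, 1.82 and 3.03 CPM at E13.5 and 5.1, 6.87 and 4.59 CPM at E14.5 (log2 fold change 1.41, adjusted p = 0.0143). Its partner Abcc9, which heart muscle also makes, stood at 5.47, 5.58 and 10.7 CPM at E13.5 and 26.6, 90.0 and 30.0 CPM at E14.5 and did not pass (log2 fold change 2.61, adjusted p = 0.0732). Mcam (CD146) and the calcium channel Trpc6 rose by 0.85 and 0.87. Vcam1, a cell adhesion protein singled out after its values were seen, rose from 68.5 to 120.0 CPM (log2 fold change 0.78, adjusted p = 0.00203). The number of Notch genes risen was 1, 1 and 5 without E13.5 replicates 1, 2 and 3, and 1, 1 and 1 without those of E14.5. The number of pericyte genes risen was 1, 1 and 5 without E13.5 replicates 1, 2 and 3, and 2, 3 and 2 without those of E14.5.

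Of 20 smooth muscle contractile genes tested none rose and 1 fell (5%, against 1.86% of all genes), and the median was 0.16. An unadjusted p under 0.05 was found in 8 of them, and DESeq2 called 3 higher and 1 lower. Acta2, smooth muscle actin, stood at 269, 452 and 284 CPM at E13.5 and 406, 630.0 and 395 CPM at E14.5 and did not pass (log2 fold change 0.51, adjusted p = 0.128). The fallen member was Cald1, the thin-filament protein caldesmon, at 394, 645 and 663 CPM at E13.5 and 303, 478 and 541 CPM at E14.5 (log2 fold change -0.37, adjusted p = 0.0103). Cartilage genes showed no calls among 15 tested, with a median of -0.07; unadjusted p-values were under 0.05 in 5 of them, and DESeq2 called 2 higher and 1 lower.

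Extracellular matrix genes rose in 3 of the lists. Of 25 fibrillar collagen and collagen assembly genes tested, 8 rose and none fell, with a median of 0.47. Postn (chr3:54361109-54391037, plus strand), which encodes the matricellular protein periostin, had the smallest p of all genes tested. It stood at 39.9, 29 and 31.5 CPM at E13.5 and 106, 114 and 83.1 CPM at E14.5, so each E14.5 library held more than 2 times the highest at E13.5 (log2 fold change 1.60 ± 0.12 (SE), adjusted p = 0.000277). Col1a1, the main chain of type I collagen, stood at 831, 515 and 495 CPM at E13.5 and 1149, 962 and 715 CPM at E14.5 (log2 fold change 0.64 ± 0.09 (SE), adjusted p = 0.00387). Each pair rose, and replicate 1 ran high at both stages, so that the stages overlapped. Sparc, a collagen-binding protein, rose from 654 to 971 CPM and Bgn, the proteoglycan biglycan, from 216 to 315 CPM. Tnc, tenascin C, rose by 0.94, Ogn, osteoglycin, by 1.18, the collagen-modifying enzyme Plod2 by 0.39 and Col3a1 by 0.37.

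Elastic fibre genes rose in 6 of 22, with none fallen and a median of 0.24. Lox, lysyl oxidase, which crosslinks collagen and elastin, stood at 163, 176 and 204 CPM at E13.5 and 238, 277 and 262 CPM at E14.5 (log2 fold change 0.52 ± 0.09 (SE), adjusted p = 0.00826), and its relative Loxl1 rose by 0.82. The fibulins Fbln2, Fbln5 and Efemp1 rose by 0.84, 0.72 and 1.04, and Ltbp2, a latent TGF-beta binding protein, by 1.44. Eln, elastin itself, stood at 112, 55.2 and 59.6 CPM at E13.5 and 186, 107 and 70.1 CPM at E14.5 and did not pass (log2 fold change 0.61, adjusted p = 0.377). Basement membrane genes gave 3 rises and no falls among 25, with a median of 0.44: Col4a5 and Col18a1, collagen chains of that sheet, rose by 0.60 and 0.49, and the linker protein nidogen, Nid1, rose from 261 to 359.9 CPM. The collagen count was 4, 2 and 6 without E13.5 replicates 1, 2 and 3, and 5, 5 and 6 without those of E14.5. The elastic fibre count was 2, 0 and 5 without E13.5 replicates 1, 2 and 3, and 4, 3 and 2 without those of E14.5. For the basement membrane list it was 2, 0 and 10 without E13.5 replicates 1, 2 and 3, and 2, 2 and 2 without those of E14.5.

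Some genes listed as markers of the future gas-exchange epithelium rose, and which cells held these rises was not tested. Of 13 alveolar type 1 genes tested 3 rose and none fell, all 13 were positive, and the median was 0.63. Hopx, a homeodomain protein of type 1 cells and also of heart muscle, stood at 1.74, 1.3 and 2.0 CPM at E13.5 and 8.01, 22.5 and 9.23 CPM at E14.5 (log2 fold change 2.84 ± 0.35 (SE), adjusted p = 0.00486). Its E14.5 replicate 2 was highest, as in 25 of the 29 muscle genes tested, and the part of muscle in the rise of Hopx was not tested. Emp2, a membrane protein of type 1 cells, stood at 17.7, 13.9 and 16.5 CPM at E13.5 and 36.9, 34.1 and 26.7 CPM at E14.5 (log2 fold change 1.01 ± 0.13 (SE), adjusted p = 0.00257), with E14.5 replicate 1 highest. Pdpn, podoplanin, which is also in the lymphatic list, rose from 8.79 to 15.8 CPM. The count of type 1 genes risen was 2, 2 and 5 without E13.5 replicates 1, 2 and 3, and 2, 3 and 3 without those of E14.5.

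Of 14 surfactant and alveolar type 2 genes tested 3 rose and 1 fell, with a median of 0.53. Lyz2, the lysozyme of type 2 cells and macrophages, stood at 7.1, 6.36 and 5.13 CPM at E13.5 and 19, 15.6 and 13.8 CPM at E14.5 (log2 fold change 1.38 ± 0.16 (SE), adjusted p = 0.00194). Ctsh, the protease that processes surfactant protein B, stood at 7.46, 6.46 and 5.86 CPM at E13.5 and 17.2, 15.2 and 13.8 CPM at E14.5 (log2 fold change 1.22 ± 0.14 (SE), adjusted p = 0.00194). Neither gene's stages overlapped. Muc1 rose by 0.96, while Scd1, a fatty acid desaturase, fell, from 36, 63.8 and 61.4 CPM to 25.7, 33.4 and 40.9 CPM (log2 fold change -0.67, adjusted p = 0.0119). Sftpc, surfactant protein C, the classical marker of distal epithelium, stood at 15.1, 4.48 and 4.79 CPM at E13.5 and 81.9, 10.2 and 6.69 CPM at E14.5. It was high in E14.5 replicate 1 alone and did not pass (log2 fold change 1.51, adjusted p = 0.125), nor did Sftpb (log2 fold change 0.42, adjusted p = 0.384) or the lipid transporter Abca3 (log2 fold change 0.35, adjusted p = 0.109). The count of type 2 genes risen was 2, 2 and 5 without E13.5 replicates 1, 2 and 3, and 2, 2 and 2 without those of E14.5.

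Genes of epithelium at large showed few calls. Among 21 pan-epithelial genes 1 rose (4.76%, against 4.15% of all genes), none fell and the median was 0.29. Of the 21, 20 were positive. In 10 all 3 pairs were higher, as in 24.7% of all genes tested, and in none were all 3 lower. Their summed level was 1020, 709 and 703 CPM at E13.5 and 1408, 688 and 829 CPM at E14.5, so replicate 1 held the most at both stages. Among 15 distal tip genes 1 rose, Clu, clusterin, from 18.7 to 51.8 CPM. The tip transcription factor Sox9 stood at 96.6, 178 and 184 CPM at E13.5 and 103, 115 and 134 CPM at E14.5 and the proximal factor Sox2 at 10.9, 11.9 and 11.1 CPM at E13.5 and 14.6, 9.97 and 13.3 CPM at E14.5, and neither passed (log2 fold change -0.33, adjusted p = 0.18 and log2 fold change 0.15, adjusted p = 0.662). None of 11 conducting airway genes passed, although Scgb3a2, an early secretory gene of the airway, stood at 1.48, 3.81 and 8.5 CPM at E13.5 and 19.3, 45.4 and 29.4 CPM at E14.5. Its stages did not overlap, with a log2 fold change of 2.79 and an adjusted p of 0.109. Within that list 2 genes had an unadjusted p under 0.05, and DESeq2 called 1 higher. Trp63, the factor of basal cells, had means of 2.16 and 4.38 CPM at E13.5 and E14.5 and did not pass (log2 fold change 1.10, adjusted p = 0.179).

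Ion and water transport genes rose in 4 of 17 and fell in none. Ano1, a chloride channel gated by calcium, stood at 47.1, 58.4 and 62.4 CPM at E13.5 and 69, 77.5 and 76 CPM at E14.5 (log2 fold change 0.41, adjusted p = 0.0198). Atp1b1, a subunit of the sodium pump, stood at 33.4, 28.8 and 35.3 CPM at E13.5 and 68.1, 148 and 84.3 CPM at E14.5 (log2 fold change 1.57, adjusted p = 0.0479), highest in E14.5 replicate 2. Clcn3 rose by 0.43 and Scnn1b, a subunit of the epithelial sodium channel, by 2.24 from a level below 1 CPM. Their number was 0, 0 and 3 without E13.5 replicates 1, 2 and 3, and 2, 2 and 1 without those of E14.5.

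Mesothelial genes, of the lung's outer lining, rose in 5 of 14 and fell in 1, with a median of 0.52. Ildr2, a membrane protein listed here as mesothelial, stood at 2.4, 4.69 and 7.04 CPM at E13.5 and 8.16, 24.4 and 19.4 CPM at E14.5 (log2 fold change 1.88 ± 0.19 (SE), adjusted p = 0.000878). Msln, mesothelin, had 7 counts at E13.5 and 103 at E14.5, or 15.1 times the E13.5 share of counts (95% exact counting interval 7.09 to 38.6). Gpm6a, Upk3b and Dpp4 rose by 1.49, 0.51 and 0.78. Rspo1, a secreted enhancer of WNT signalling, fell, from 23.5, 25.4 and 21.1 CPM to 14.9, 15 and 17 CPM (log2 fold change -0.59, adjusted p = 0.0489). The number risen was 3, 1 and 3 without E13.5 replicates 1, 2 and 3, and 5, 2 and 2 without those of E14.5.

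Macrophage and monocyte genes rose in 4 of 26 (15.4%, against 4.15% of all genes), with none fallen and a median of 0.35. The members were Lyz2, its relative Lyz1 (1.41), the perforin-like Mpeg1 (0.72) and the fatty acid receptor Cd36, which endothelium and heart muscle also make. Cd36 stood at 10.8, 11.3 and 11.6 CPM at E13.5 and 29, 75.7 and 34.9 CPM at E14.5 (log2 fold change 1.94 ± 0.27 (SE), adjusted p = 0.0141) and was highest in E14.5 replicate 2. Lyz1 and Lyz2 are close copies, and reads can be shared between them. Csf1r, the receptor that defines macrophages, stood at 26.7, 15.2 and 17.5 CPM at E13.5 and 29, 22.2 and 21.1 CPM at E14.5 and did not pass (log2 fold change 0.31, adjusted p = 0.361). The count risen was 2, 2 and 3 without E13.5 replicates 1, 2 and 3, and 2, 3 and 2 without those of E14.5.

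Embryonic globins had lower means at E14.5, with none of 3 past the test, 0 at an unadjusted p under 0.05 and 1 called lower by DESeq2. Hbb-bh1 stood at 54.1, 32.5 and 25.2 CPM at E13.5 and 8.51, 6.24 and 15.3 CPM at E14.5, without overlap (log2 fold change -2.03, adjusted p = 0.257). Hba-x was at 169, 188 and 145 CPM at E13.5 and 66.9, 44.9 and 133 CPM at E14.5 (log2 fold change -1.20, adjusted p = 0.287) and Hbb-y at 1837, 1383 and 998 CPM at E13.5 and 1224, 423 and 1059 CPM at E14.5 (log2 fold change -0.70, adjusted p = 0.36). The adult globins Hba-a1, Hba-a2, Hbb-b1 and Hbb-b2, near-identical copies, are listed at 0 in all 6 libraries. Of 25 other red cell genes 1 fell, Ermap, a red cell membrane protein, from 2.45, 6.67 and 4.84 CPM to 0.701, 1.05 and 2.27 CPM (log2 fold change -1.90, adjusted p = 0.0398).

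The falls included the heterochronic genes, regulators of growth and timing that are high in early embryos and shut off later. Of 14 tested, 6 fell and none rose, with a median of -0.43 against -0.002 for all genes. Hmga2 (chr10:120361275-120476469, minus strand), a chromatin protein of proliferating embryonic cells, stood at 589, 1347 and 1482 CPM at E13.5 and 224, 460.2 and 763 CPM at E14.5 (log2 fold change -1.32 ± 0.23 (SE), adjusted p = 0.0365). Each pair fell, and replicate 1 was lowest at both stages. Igf2bp1 (chr11:95957163-96005940, minus strand), an RNA-binding protein for growth mRNAs, stood at 231, 285 and 329 CPM at E13.5 and 131, 204 and 213 CPM at E14.5 (log2 fold change -0.64 ± 0.10 (SE), adjusted p = 0.00578), without overlap. Its relatives Igf2bp2 and Igf2bp3 fell too, with log2 fold changes of -0.33 and -0.36. Sall4, a zinc finger factor of pluripotent cells, had 2.09, 3.7 and 3.47 CPM at E13.5 and 0.851, 0.682 and 1.35 CPM at E14.5 (log2 fold change -1.69 ± 0.29 (SE), adjusted p = 0.00906). Arid3a, a DNA-binding factor, fell from 31.9 to 23.5 CPM. Lin28b, which blocks the maturation of let-7 microRNAs, was lower in all 3 pairs at 11.6, 28.4 and 29.4 CPM at E13.5 and 6.61, 13.3 and 16.3 CPM at E14.5 and did not pass (log2 fold change -0.94, adjusted p = 0.0764). Sall1 was an exception in direction, with 0.817, 0.782 and 1.12 CPM at E13.5 and 2.45, 11.4 and 3.29 CPM at E14.5, and did not pass (log2 fold change 2.48, adjusted p = 0.0649).

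The heterochronic list had a median of -0.26 on the day before, with no call. The number of its members fallen was 2, 0 and 8 without E13.5 replicates 1, 2 and 3, and 2, 2 and 2 without those of E14.5. The summed level was 2776, 3771 and 3909 CPM at E13.5 and 1858, 2413 and 2723 CPM at E14.5, so the range at E14.5 lay under that at E13.5 by a narrow margin. Among the 19 Hox genes tested, position regulators of the body axis, 3 fell and none rose, and the median was -0.38. These were Hoxb6, from 29.6, 36.9 and 39.3 CPM to 18.7, 19.9 and 30.9 CPM (log2 fold change -0.62, adjusted p = 0.0154), and Hoxb4 and Hoxb3, with log2 fold changes of -0.46 and -0.36. The number of Hox genes fallen was 0, 0 and 6 without E13.5 replicates 1, 2 and 3, and 0, 0 and 2 without those of E14.5.

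Genes of retinoic acid, the signal made from vitamin A that the lung bud needs to form, fell in 3 of 16 and rose in none, with a median of -0.18. Crabp2, a binding protein that brings retinoic acid to its receptors, stood at 20.8, 13.8 and 11.7 CPM at E13.5 and 6.96, 5.3 and 6.26 CPM at E14.5 (log2 fold change -1.32 ± 0.25 (SE), adjusted p = 0.0202). All E14.5 libraries were below all at E13.5. The receptor Rarb and the synthesis enzyme Rdh10 fell, with log2 fold changes of -0.41 and -0.46. The number fallen was 0, 0 and 5 without E13.5 replicates 1, 2 and 3, and 0, 1 and 0 without those of E14.5. Of 15 hedgehog genes 1 fell, Gli3, a transcription factor of the pathway, from 285 to 211 CPM (log2 fold change -0.41, adjusted p = 0.0246). The ligand Shh stood at 51.4, 119 and 113 CPM at E13.5 and 65.9, 114 and 132 CPM at E14.5 and did not pass (log2 fold change 0.17, adjusted p = 0.268).

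Of 33 WNT genes tested, 2 rose (6.06%) and 3 fell (9.09%), against 4.15% and 1.86% of all genes, and the median was -0.09. Rspo2, a secreted enhancer, stood at 54.2, 80.7 and 59.1 CPM at E13.5 and 28.2, 38.8 and 47.6 CPM at E14.5 (log2 fold change -0.77 ± 0.13 (SE), adjusted p = 0.0119), and Lef1, a transcription factor and response gene, at 77, 114 and 117 CPM at E13.5 and 48.6, 68.8 and 96.6 CPM at E14.5 (log2 fold change -0.55 ± 0.09 (SE), adjusted p = 0.00736). The third was Rspo1, above. The risen members, Wif1 and Sfrp5, encode secreted WNT antagonists and rose by 1.42 and 2.44 from low levels. Dact1, an intracellular modulator of WNT signalling (chr12:71309884-71320107, plus strand), was outside the list and among the largest falls, at 115, 129.7 and 116 CPM at E13.5 and 40.9, 61.7 and 62.8 CPM at E14.5 (log2 fold change -1.16 ± 0.14 (SE), adjusted p = 0.00486). Fallen WNT genes numbered 0, 0 and 3 without E13.5 replicates 1, 2 and 3, and 2, 1 and 2 without those of E14.5. Risen WNT genes numbered 0, 0 and 4 without E13.5 replicates 1, 2 and 3, and 1, 1 and 0 without those of E14.5.

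FGF genes moved both ways. Of 21 tested 3 rose and 3 fell (14.3% each), against 4.15% and 1.86% of all genes. Fgf10, the ligand that directs branching, stood at 44.8, 86.2 and 86.1 CPM at E13.5 and 47.6, 78.3 and 97.6 CPM at E14.5 and did not pass (log2 fold change 0.05, adjusted p = 0.885). Fgf1 and Fgf7, other ligands, rose from 2.34 to 6.72 CPM and from 0.374 to 1.82 CPM, and Etv1, a transcription factor downstream of the receptors, by 0.52. Fgf9, the ligand of the mesothelium and epithelium, fell from 26.8 to 19.8 CPM, the receptor Fgfr1 from 162 to 128 CPM, and Il17rd (Sef), a feedback inhibitor, from 66.1 to 47.5 CPM. The numbers risen were 1, 0 and 4 without E13.5 replicates 1, 2 and 3, and 1, 1 and 1 without those of E14.5. The numbers fallen were 0, 0 and 2 without E13.5 replicates 1, 2 and 3, and 0, 1 and 0 without those of E14.5.

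In the BMP list 2 of 28 rose (7.14%) and 1 fell (3.57%), against 4.15% and 1.86% of all genes. Bmp3, a ligand that opposes other BMPs, rose from 11.6 to 23.3 CPM (log2 fold change 1.01, adjusted p = 0.0151), and Bmp7 rose by 0.62. Chrdl1, a secreted BMP antagonist, fell from 14.9 to 8.04 CPM (log2 fold change -0.87, adjusted p = 0.00807). Bmp4, the BMP of the branching tips, stood at 40.1, 31.8 and 33.4 CPM at E13.5 and 53.1, 30.5 and 34 CPM at E14.5 and did not pass (log2 fold change 0.13, adjusted p = 0.53). In the TGF-beta list 2 of 17 rose, Ctgf and Itgb6, the latter a subunit of an integrin that activates latent TGF-beta, by 0.86 and 1.13, and the receptor Tgfbr1 fell from 387 to 289 CPM. The shares risen and fallen in the TGF-beta list were 11.8% and 5.88%. BMP genes risen numbered 1, 0 and 2 without E13.5 replicates 1, 2 and 3, and 1, 1 and 1 without those of E14.5. TGF-beta genes risen numbered 0, 0 and 3 without E13.5 replicates 1, 2 and 3, and 1, 1 and 1 without those of E14.5.

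The largest falls at a mean of at least 5 CPM reached several kinds of gene. Astn1, a neuronal adhesion protein, stood at 18.4, 36.4 and 32.6 CPM at E13.5 and 4.3, 12.7 and 13.6 CPM at E14.5 (log2 fold change -1.62 ± 0.24 (SE), adjusted p = 0.0134). Slc14a1, the urea transporter, fell from 10.8 to 3.96 CPM. A2m, a protease inhibitor, fell from 7.39 to 3.38 CPM, and Dpysl4, a cytoskeletal protein of growing axons, from 14.7 to 6.93 CPM. Crispld2, a secreted protein of lung mesenchyme, Adamtsl3, Akr1c19 and the protocadherin Pcdh10 fell with log2 fold changes of -1.01, -0.98, -0.92 and -0.91. Dcx, the microtubule protein doublecortin, stood at 90.7, 207 and 196 CPM at E13.5 and 49.7, 106 and 132 CPM at E14.5 (log2 fold change -0.81 ± 0.10 (SE), adjusted p = 0.0021). In neuron and glia genes as a list 1 of 23 fell, Gfra1, a receptor for the neurotrophic factor GDNF, from 45.2 to 30.1 CPM. Of 26 axon guidance genes 3 rose (Slit2 by 0.71, Nrp1 and Ntn4) and 2 fell, the netrin receptors Unc5c and Unc5a, with log2 fold changes of -0.38 and -1.16. The shares risen and fallen in the guidance list were 11.5% and 7.69%, against 4.15% and 1.86% of all genes. Guidance genes risen numbered 1, 0 and 4 without E13.5 replicates 1, 2 and 3, and 2, 2 and 2 without those of E14.5, and those fallen 1, 0 and 1 without E13.5 replicates 1, 2 and 3, and 1, 1 and 0 without those of E14.5.

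Some genes of low level, singled out after their values were seen, fell further. Sp8, a zinc finger factor of limb and brain, stood at 3.07, 3.75 and 4.01 CPM at E13.5 and 0.25, 0.315 and 0.918 CPM at E14.5 (log2 fold change -3.03 ± 0.47 (SE), adjusted p = 0.00826). Hoxd13, the most posterior gene of its cluster and not in the Hox list above, stood at 0.664, 1.25 and 1.71 CPM at E13.5 and 0.20, 0.0525 and 0.27 CPM at E14.5 (log2 fold change -2.74, adjusted p = 0.0119). Tfap2b and Gdf5, a factor of neural crest and kidney and a ligand of joints, fell, with log2 fold changes of -2.31 and -1.75. In all 4 the stages did not overlap.

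**Figure D3:**
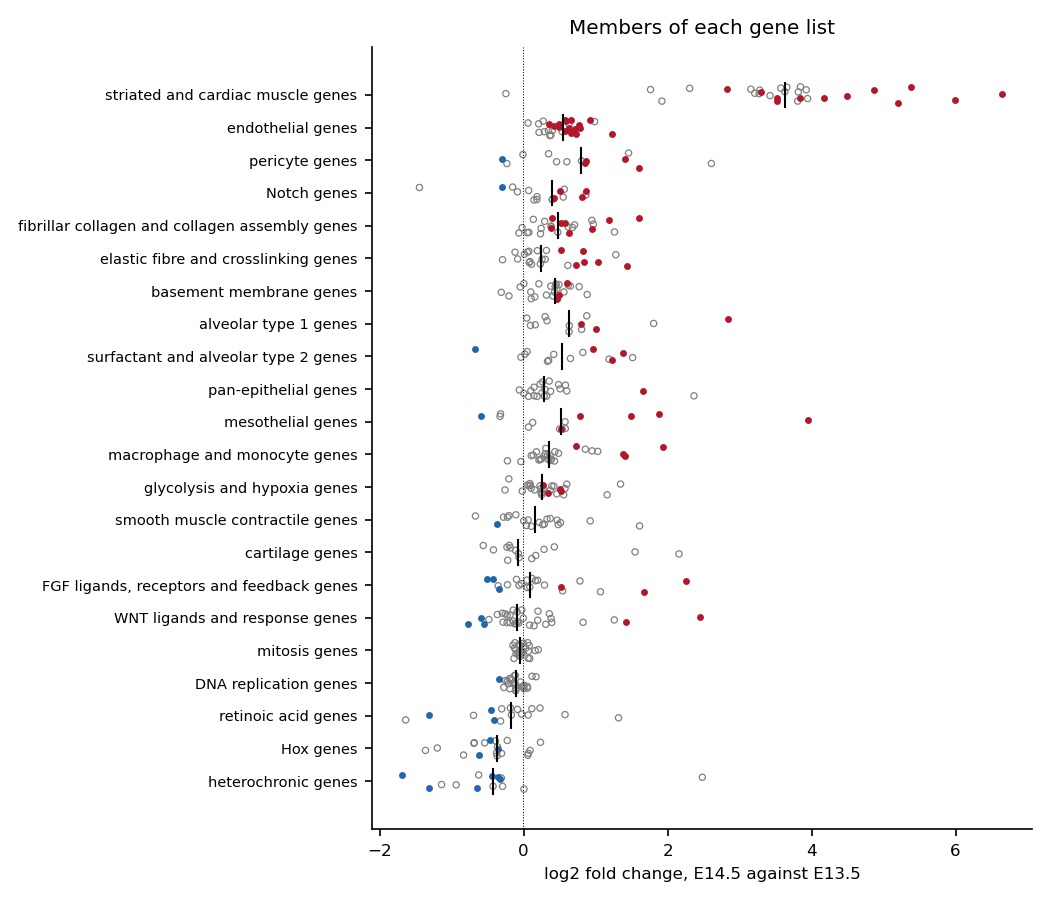
Each point is a tested member of a gene list at its log2 fold change from E13.5 to E14.5. Red points rose, blue points fell, open points did not pass, black bars are list medians and the dotted line is the median of all genes. The muscle list stands far to the right with a median of 3.63, and the heterochronic list has the lowest median of those plotted, -0.43.

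Mitosis and DNA replication genes had few calls, as had all genes tested, of which 4.15% rose and 1.86% fell. None of 26 mitosis genes passed, with 2 at an unadjusted p under 0.05, none called by DESeq2 and a median of -0.05. Of 27 DNA replication genes 1 fell, Ccne1, cyclin E1, from 86.5 to 68.5 CPM (log2 fold change -0.34, adjusted p = 0.0261), and 21 were negative with a median of -0.11. In that list 13 genes were lower in all 3 pairs and 1 was higher in all 3, and DESeq2 and relative log expression scaling each called 3 lower. Its number fallen was 0, 0 and 1 without E13.5 replicates 1, 2 and 3, and 0, 0 and 0 without those of E14.5. Of 15 cell cycle inhibitors and p53 targets 3 rose: Cdkn2c by 0.79, Btg2 by 0.47 and Cdkn1b, the inhibitor p27, by 0.28. The inhibitors risen numbered 0, 0 and 1 without E13.5 replicates 1, 2 and 3, and 1, 0 and 0 without those of E14.5.

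Glycolysis and hypoxia genes rose in 4 of 28 and fell in none, with a median of 0.26. Ldha, lactate dehydrogenase A, stood at 500.3, 532 and 476 CPM at E13.5 and 614, 679 and 616 CPM at E14.5 (log2 fold change 0.34, adjusted p = 0.0124) and Aldoa, aldolase A, at 251, 166 and 153 CPM at E13.5 and 359, 273 and 185 CPM at E14.5 (log2 fold change 0.50, adjusted p = 0.00747). Pdk1 and Pfkl rose by 0.52 and 0.27. Their number was 1, 0 and 6 without E13.5 replicates 1, 2 and 3, and 4, 2 and 2 without those of E14.5. Of 25 genes of cholesterol and fatty acid synthesis 2 fell, Scd1 and the fatty acid elongase Elovl6 (-0.33), and 22 were negative with a median of -0.16. The number fallen in that list was 0, 0 and 2 without E13.5 replicates 1, 2 and 3, and 1, 0 and 0 without those of E14.5. Of 19 immediate early genes, which respond to stimuli within minutes, 4 rose: Egr1 by 0.68, Zfp36 by 0.49, Ier3 by 1.08 and Btg2. Their count was 0, 0 and 1 without E13.5 replicates 1, 2 and 3, and 1, 0 and 0 without those of E14.5. Genes of MHC class I presentation rose in 3 of 11: Tapbp from 17.4 to 25.1 CPM, H2-K1 from 5.42 to 8.71 CPM and B2m from 57.1 to 70.6 CPM. H2-K1 belongs to a family of close copies among which reads can be shared, and the count risen was 0, 0 and 1 without E13.5 replicates 1, 2 and 3, and 0, 0 and 0 without those of E14.5.

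Other single genes belonged to growth and tissue pattern. Of 22 imprinted growth genes tested 1 rose (4.55%) and 2 fell (9.09%), against 4.15% and 1.86% of all genes. Mest, an imprinted gene of mesoderm, rose from 1425 to 1875 CPM, while the imprinted genes Peg10 and Nnat fell, with log2 fold changes of -0.46 and -0.33. Igfbp3, a carrier of insulin-like growth factors, rose by 0.50, the 1 call among 13 IGF axis genes tested (7.69%). Among 24 mesenchymal transcription factors 1 rose (4.17%, against 4.15% of all genes) and none fell. The risen member was Meox2, a homeobox gene of mesoderm, at 17.3, 14.2 and 14 CPM at E13.5 and 44.6, 26.8 and 28.7 CPM at E14.5 (log2 fold change 1.11, adjusted p = 0.0268). Fmo2, the flavin monooxygenase of lung, Perp, a protein of desmosomes, and Anxa1, annexin A1, were singled out after their values were seen. Fmo2 stood at 0.46, 0.156 and 0.195 CPM at E13.5 and 5.4, 5.09 and 2.86 CPM at E14.5 (log2 fold change 4.05 ± 0.39 (SE), adjusted p = 0.000598), Perp rose from 5.01 to 23.4 CPM and Anxa1 from 6.81 to 26.4 CPM.

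**Figure D4:**
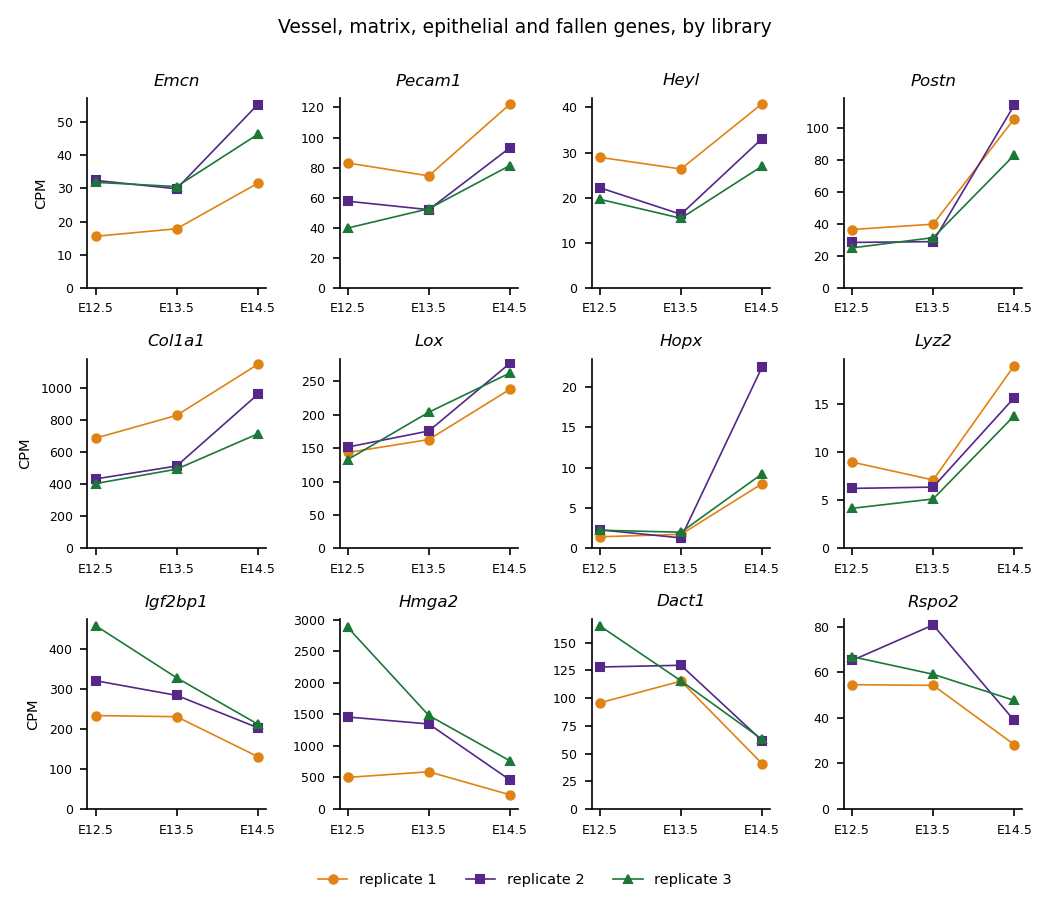
CPM in each library of 12 genes named in the text, at the 3 stages, with a line for each replicate number. In each gene all 3 lines rise, or all 3 fall, from E13.5 to E14.5, and replicate 1 often lies apart from replicates 2 and 3, as in Emcn and Hmga2.

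The step from E13.5 to E14.5 was set against the step from E12.5 to E13.5, which shares the E13.5 libraries. On the day before 1 gene passed (0.00702%), Ifi204, and 553 had an unadjusted p under 0.05. The test of the difference between the steps called 3 genes (0.0211%), Ildr2, Strip2 and Ifi204, each with a larger second step, and 1105 had an unadjusted p under 0.05. DESeq2 called 50. Ildr2 had 4.14, 7.85 and 10.9 CPM at E12.5 before the levels given above, so it was lower at E13.5 than at either neighbour in each replicate number (difference of the steps 2.59 ± 0.34 (SE) log2 units, adjusted p = 0.0439). Strip2, a scaffold protein of a phosphatase complex, stood at 0.819, 0.948 and 0.601 CPM at E12.5, 0.204, 0.313 and 0.244 CPM at E13.5 and 2.55, 8.97 and 4.16 CPM at E14.5 (difference of the steps 5.88 ± 0.79 (SE) log2 units, adjusted p = 0.0439). Ifi204, an interferon-induced gene of a family of close copies on chromosome 1, had 1 count over the E13.5 libraries. Its levels were 0.144, 2.66 and 6.92 CPM at E12.5, 0, 0 and 0.0489 CPM at E13.5 and 0.10, 3.78 and 2.97 CPM at E14.5 (difference of the steps 13.80 ± 1.42 (SE) log2 units, adjusted p = 0.00908). The E14.5 libraries held 133 times the E13.5 share of counts (95% exact counting interval 23.4 to 5281), but replicate 1 had almost none at any stage.

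The genes with the next smallest p in that test did not pass. Upward they included Postn, Cox7b and Cd9. Downward they included Tshz1, a zinc finger factor, at 201, 189.8 and 191 CPM at E12.5, 224, 212 and 222 CPM at E13.5 and 135, 141 and 154 CPM at E14.5 (difference of the steps -0.79 ± 0.12 (SE) log2 units, adjusted p = 0.0721). On the second day itself Tshz1 fell (log2 fold change -0.62, adjusted p = 0.00194), against a log2 fold change of 0.18 on the first. The count of genes whose steps differ was 1, 0 and 11 without E13.5 replicates 1, 2 and 3 in turn, and 3, 8 and 3 without E14.5 replicates 1, 2 and 3.

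**Figure D5:**
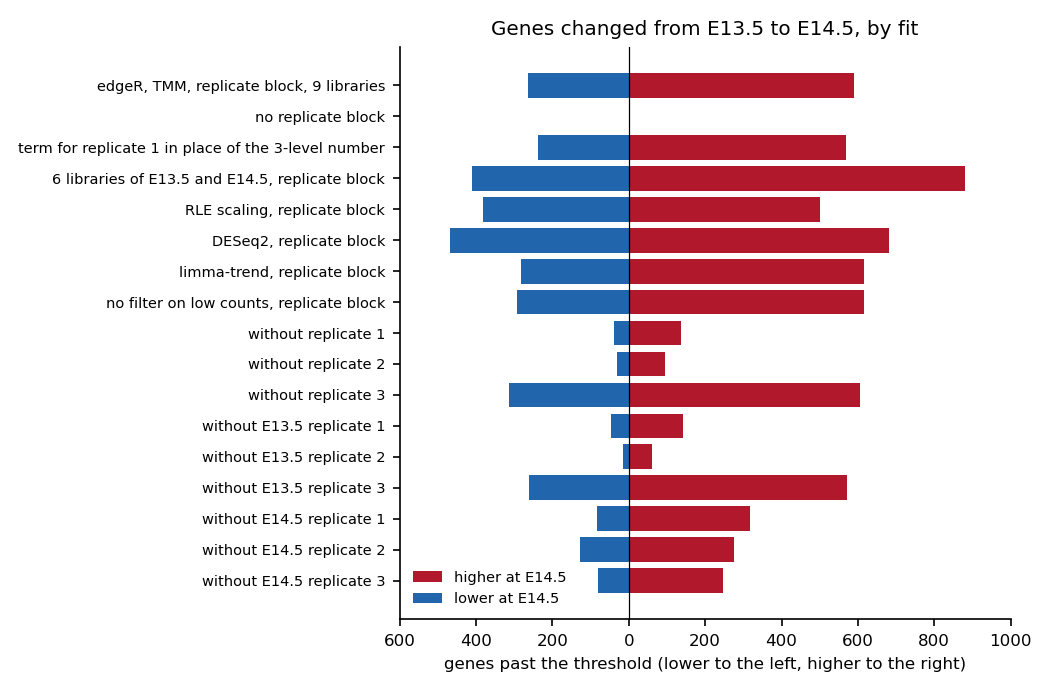
Bars give the number of genes past the threshold from E13.5 to E14.5, higher to the right (red) and lower to the left (blue), for each way of fitting the counts. The count is 856 in the reported fit, 0 without the replicate block, and smallest among the fits with a block without E13.5 replicate 2, at 77.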

How the data were processed

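RNA was sequenced from pooled mouse lungs; the submitters' processing notes name cutadapt 1.6, Bowtie 1.1.1, TopHat, HTSeq and DESeq2, with the build mm10. The authors deposited raw counts per gene for the 9 fresh-lung libraries, and these whole-number counts were used as deposited. Whether counting used strand is not given in the sources used here; overlapping antisense genes cannot be told apart.

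Genes were filtered by stage (filterByExpr), scaled by the trimmed mean of M values and fitted in edgeR 4.0.16 (R 4.3.3) with stage and replicate number over all 9 libraries; DESeq2 1.42.0 and limma 3.58.1 served as alternatives. The number was kept as a block because same-numbered libraries deviated together (r = 0.40 to 0.84 in 9 pairs, -0.74 to 0.63 in 18 others). Every negative value involved replicate 1. Among replicates 2 and 3 alone, r was 0.40 to 0.61 in 6 same-numbered pairs and 0.45 to 0.63 in 6 others, so the numbers 2 and 3 are not told apart there. A term for replicate 1 alone in place of the 3-level number gave 808 changed genes, of which 751 were among the 856. Replicates differed by more than sampling noise. The code was tested on simulated data. CPM used scaled library sizes. Positions are from GENCODE M21 (21737 symbols matched) and promoters from RefSeq GRCm38.p6.

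The members and the 52 gene lists were chosen with earlier results of these data known. Named genes are the 12 largest rises and falls past the threshold at a mean of at least 5 CPM, as many as 4 per list by smallest p, the 6 each way with the smallest p in the difference of the steps, and a set of standard lung genes; further list members were named after their values were seen. A few genes that this rule picked are not reported here. Alternatives were the block, the scaling, the tool, the filter, the libraries in the fit and leaving out libraries. Intervals cover counting error only. The remaining lists had these calls. None of 7 neuroendocrine genes passed, 2 of 18 integrins rose (11.1%) and 1 of 76 ribosomal protein genes rose (1.32%). Of 10 granulocyte, mast and lymphoid genes 1 rose (10%), as did 1 of 19 heat shock and ER stress genes (5.26%). Of 16 interferon-induced genes 1 rose (6.25%). Of 19 mechanosensitive and YAP pathway genes 2 rose (10.5%), and of 25 matrix protease and inhibitor genes 1 fell (4%). Of 7 bone and connective tissue markers 1 rose and 1 fell (14.3% each). None of 5 liver, gut, thymus and thyroid markers or of 3 oesophagus and stratified epithelium markers passed. Of all genes tested, 4.15% rose and 1.86% fell.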

Additional observations from a re-analysis of the deposited data

Results flagged for a closer look

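For 3 genes the step from E13.5 to E14.5 differed from the step from E12.5 to E13.5 by a test of that difference. Ifi204 differed by 13.8 log2 units, with levels of 0.144, 2.66 and 6.92 CPM at E12.5, 0, 0 and 0.0489 CPM at E13.5 and 0.10, 3.78 and 2.97 CPM at E14.5; the fitted size depends on the prior count, since 1 read was counted at E13.5. Strip2 differed by 5.88, with 0.819, 0.948 and 0.601 CPM at E12.5, 0.204, 0.313 and 0.244 CPM at E13.5 and 2.55, 8.97 and 4.16 CPM at E14.5. Ildr2 differed by 2.59, with 4.14, 7.85 and 10.9 CPM at E12.5, 2.4, 4.69 and 7.04 CPM at E13.5 and 8.16, 24.4 and 19.4 CPM at E14.5. In each gene the E13.5 libraries were the lowest of their replicate number, and both steps share them.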

How the results depend on the processing

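Without the replicate block the numbers of genes changed, changed at least 2-fold and differing between the steps were 0, 0 and 0, with 977 genes at an unadjusted p under 0.05 for the first; the block, paired by replicate number, gave 856, 265 and 3. The 6 libraries of the 2 stages alone, with the block, gave 1292 changed genes. Leaving out 1 library or 1 replicate number, the count changed ranged from 77 to 918, that of at least 2-fold from 46 to 346, and that of differing steps from 0 to 94. The count of differing steps was 1 with relative log expression scaling, 50 with DESeq2 and 9 with no filter on low counts; the cause was not tested. Fgf10 and Bmp4, neither past the threshold, changed sign: leaving out libraries, Fgf10 ranged from -0.11 to 0.11 and Bmp4 from -0.016 to 0.23. Relative log expression scaling kept the sign of the median in all lists but the cytosolic ribosomal protein genes. Precision is limited by 3 libraries a stage, by replicate 1 standing apart, and, for muscle and mesothelial genes with under 10 counts at E13.5, by counting error.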
